A study of Mus musculus with 17 samples.

Results

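Retinoic acid, the active derivative of vitamin A, drives spermatogonial differentiation and the entry of germ cells into meiosis. The genes described here are 9 of the 23282 gene rows of the deposited expression table. With earlier results of these data known, they were picked by symbol for what their products do with retinoic acid, not by a measured value. They comprise 4 nuclear receptors (*Rara*, *Rarg*, *Rxra* and *Rxrb*), 2 intracellular binding proteins (*Crabp1* and *Crabp2*), 1 synthesis enzyme (*Aldh1a1*) and 2 enzymes that degrade retinoic acid (*Cyp26a1* and *Cyp26b1*).

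Retinol is oxidised to retinal and then to retinoic acid, the last step by retinaldehyde dehydrogenases such as ALDH1A1 and ALDH1A2. CRABP proteins carry retinoic acid in the cytoplasm, CYP26 enzymes hydroxylate it for removal, and heterodimers of a RAR and an RXR bind paired half-sites in DNA and turn on genes such as *Stra8*. In the mouse testis, *Aldh1a1* is known from Sertoli and Leydig cells, *Aldh1a2* from spermatocytes, and *Cyp26b1* from peritubular myoid cells.

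The RNA came from testicular cells of C57BL/6 mice (C57BL/6J in the study's methods) sorted, by their staining with Hoechst and propidium iodide, as spermatogonia (SPG), spermatocytes at pre-leptotene (PreL), or a joint fraction of leptotene and zygotene (LZ). Control mice were wild type (WT), and the knockout mice, labelled Stra8-cre_Nat10_KO and called SKO, carried a floxed and a null allele of *Nat10*, which encodes an RNA acetyltransferase, together with a Cre knocked in at *Stra8*, a gene that retinoic acid itself induces in germ cells. Each genotype gave 3 libraries per stage, except WT LZ with 2, which makes 17 in all. The study calls the libraries of a group biological replicates, but the age of these mice, and whether each library came from a separate mouse, are not given in the sources used here, so p-values measure the spread between these samples. Where a WT LZ library is left out, the other 1 is assumed to vary like the remaining groups of the comparison, which alone give the spread.

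The libraries held from 5812380 to 13820953 reads counted on genes, with the 3 SKO LZ libraries the shallowest. Levels are given as normalised reads, the read counts divided by a median-of-ratios size factor over all 17 libraries. *Nat10* itself stood at 248 to 376.5 normalised reads across WT and 84.2 to 215 across SKO, with no overlap, and its log2 difference (SKO minus WT) was -0.87 in SPG, -1.29 in PreL and -1.47 in LZ (limma adjusted p = 0.0326, 0.00591 and 0.00469). Reads outside the excised exons count toward this gene as well.

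Marker genes were summed as RPM, reads scaled to 1 common library total, to compare the sorts with their labels. Early meiotic markers summed to 2689 to 8403 and those of differentiating spermatogonia to 473 to 1107 over the 17 libraries, and undifferentiated spermatogonial markers to 8.60 to 113. In SPG the early meiotic sums were 2689 to 2800 in WT and 3774 to 4130 in SKO. In PreL they were 3815 to 4568 and 5841 to 8403, and in LZ they overlapped. The sums of differentiating spermatogonia, whose list includes *Stra8* and *Kit*, were 722 to 830 and 935 to 1107 in SPG. In PreL these were 993 to 1106 and 724 to 808, and in LZ 599 to 659 and 473 to 528. The part of these differences in the results below was not tested. Markers of cells outside the labels were also present and differed between the genotypes. The 8 spermatid markers summed to 105 to 1013 in WT libraries of the 3 stages and to 4.25 to 13.4 in SKO libraries, and late spermatocyte markers reached 3435 and 6149 in WT LZ against at most 136 in SKO LZ. Among somatic lists, the summed Leydig, Sertoli, peritubular myoid and macrophage markers were higher in every SKO SPG library than in every WT SPG library. Sertoli markers were highest in WT LZ replicate 2 (1503) and SKO PreL replicate 2 (1048), endothelial markers summed to at most 7.28 in any library, and the ranges that bear on a result are given beside it.

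Retinoic acid response elements are pairs of the half-site AGGTCA, for which the variants AGTTCA or GGGTCA or GGTTCA were also accepted, repeated in the same orientation 1, 2 or 5 bases apart (DR1, DR2 and DR5). The search covered both strands of the promoter windows of RefSeq (GRCm38.p6, 250 bases before to 50 after each start), which held 15 windows for 8 of the 9 genes and none for *Crabp2*. A DR5 was found in 1 of the 15 windows, that of *Cyp26a1*, against 0.0974% of the 32851 windows of all genes. DR1 and DR2 were found in 0 of the 15 (0.222% and 0.268% of all windows), and single half-sites in 6 (43.7% of all windows). The matches that lie before the start of *Cyp26a1*, *Aldh1a1*, *Rarg* and *Rxra* are shown with the half-sites in capitals, to give the letters behind these counts. They read 5′ to 3′ on the gene's strand, where capitals beginning with T are half-sites of the other strand.
Cyp26a1, DR5, 16 to 32 bases before the start, chr19:37697761-37697797 (+): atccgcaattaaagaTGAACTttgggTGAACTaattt
Aldh1a1, half-site, 44 to 49 bases before the downstream of its 2 starts, chr19:20601909-20601934 (+): gatatgcaaaTGACCCttagtgcatg
Rarg, half-site, 220 to 225 bases before the upstream of its 2 starts, chr15:102257732-102257757 (-): cccaggacacTGACCTctgccagctc
Rxra, half-site, 100 to 105 bases before the downstream of its 2 starts, chr2:27709177-27709202 (+): ggagccactaTGACCCtagaaatggg
Rxra, half-site, 82 to 87 bases before the downstream of its 2 starts, chr2:27709195-27709220 (+): gaaatgggtgTGACCTgagtaatggt
Rxra, half-site, 43 to 48 bases before the downstream of its 2 starts, chr2:27709234-27709259 (+): gtggcaggaaAGGTCAgtcactctct

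The windows of *Cyp26b1*, *Crabp1* and *Rxrb* held none of these letters, and those of *Rara* held half-sites but no repeat. A match of letters is a description of the sequence and not of binding.

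*Crabp1* was by far the most abundant of the 9 genes per length, and of the receptors *Rxrb* came second in WT SPG while the other 3 stood lower. In WT SPG it had 1057 ± 100.1 normalised reads per kilobase of exon (SD, n = 3). *Rxrb* followed with 63.3 ± 12.8, then *Aldh1a1* with 21.3 ± 8.5, *Crabp2* with 20.1 ± 19.8, *Rxra* with 17.6 ± 4.19, *Cyp26b1* with 11.3 ± 1.22, *Rarg* with 9.0 ± 2.3, *Rara* with 6.74 ± 3.56 and *Cyp26a1* with 4.16 ± 5.44. The steps from *Crabp1* to *Rxrb*, from *Rxrb* to *Aldh1a1* and from *Rxra* to *Cyp26b1* exceeded the summed SDs of the 2 neighbours, and the other neighbours in this order lay within their spread. In SKO LZ the order began with *Crabp1* at 1052 ± 33.5 and *Aldh1a1* at 509 ± 214 per kilobase, ahead of *Rxrb* at 47.0 ± 9.22 and *Cyp26b1* at 41.0 ± 4.82. Averaged over the 17 libraries, *Crabp1* stood above 96.7% of the 20857 genes with an annotated length, *Aldh1a1* above 89.3% and *Rarg* above 49.9%.

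**Figure D1:**
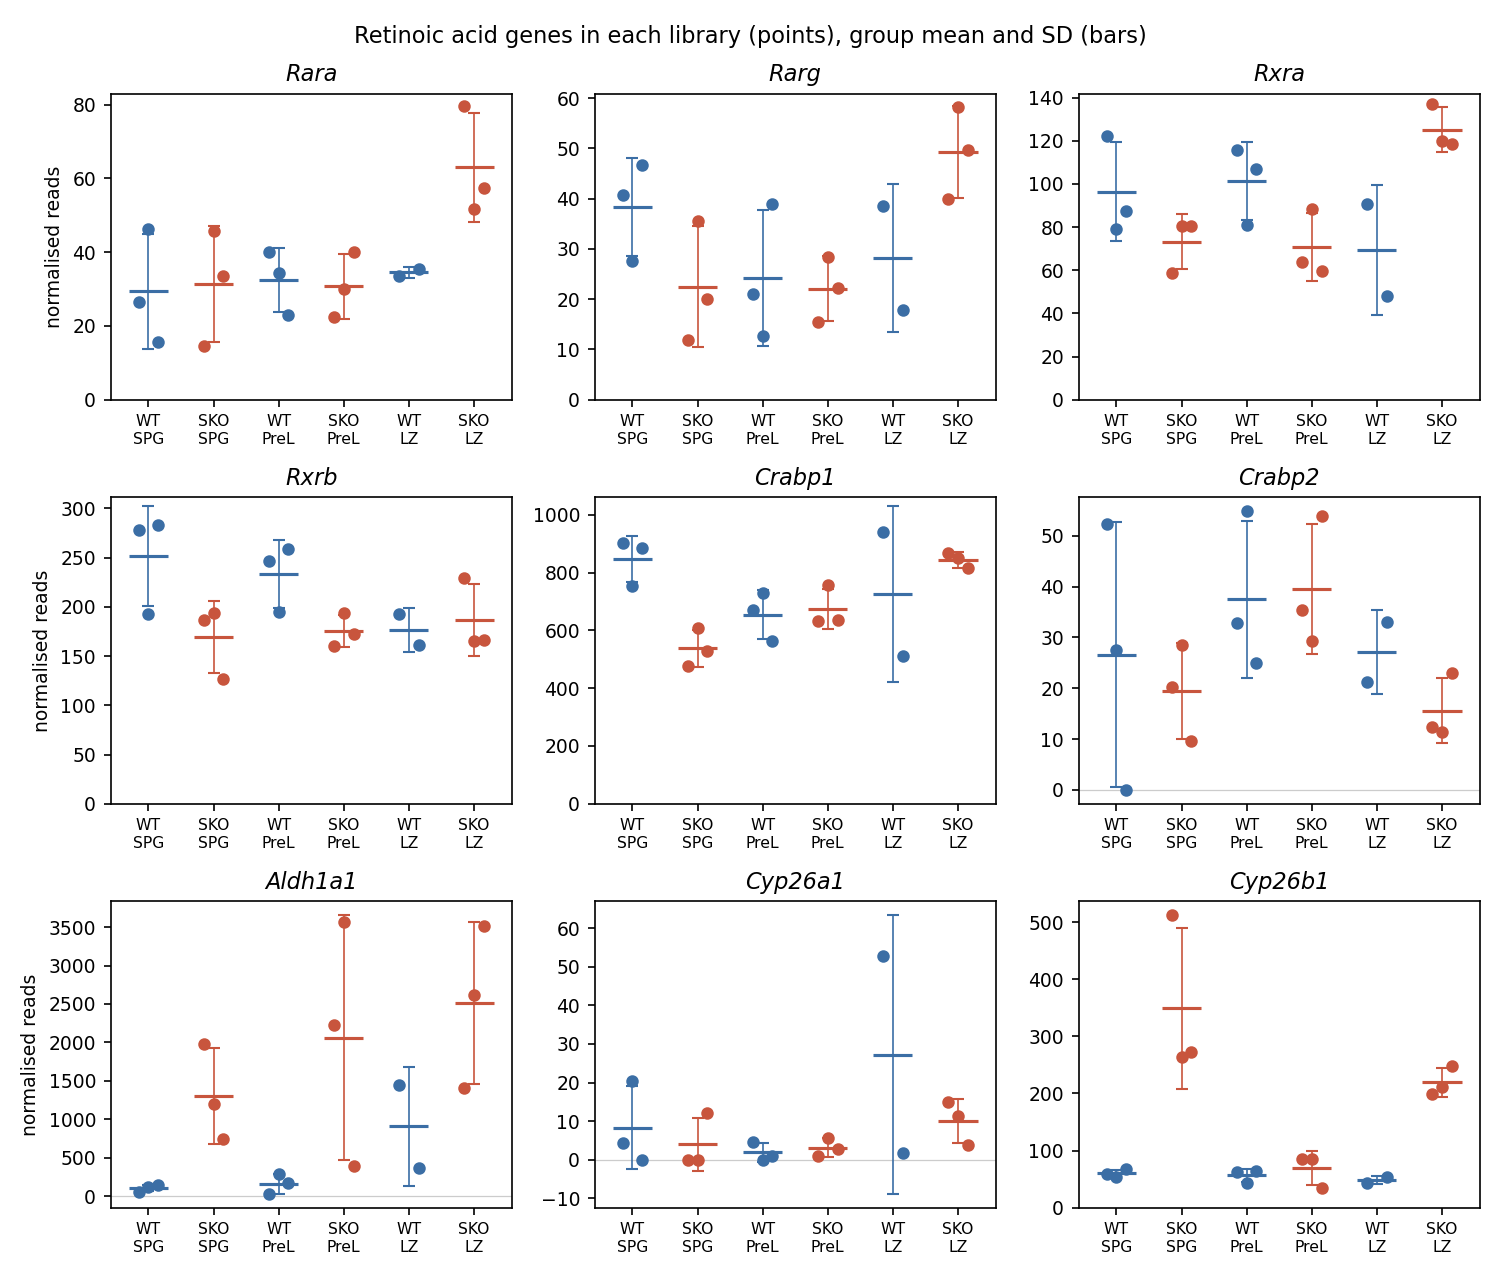
Normalised reads (y axes, linear, 1 panel per gene) of the 9 retinoic acid genes in the 17 libraries by group (x axes). Points are libraries (blue WT, red SKO), horizontal bars group means and vertical bars SDs; every SKO SPG point of *Aldh1a1* and *Cyp26b1* lies above every WT SPG point, and *Cyp26b1* falls back in SKO PreL.

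Between the genotypes the synthesis enzyme *Aldh1a1* and the degrading enzyme *Cyp26b1* differed, while receptors and binding proteins did not reach the thresholds. A gene was called at an adjusted p under 0.05 and an absolute log2 difference above 1, from limma fitted on all genes tested. In SPG 2 of the 8 members tested were called higher in SKO, against 3.95% of the 12846 genes tested, and 0 lower, against 2.06%. In PreL 1 of 8 was called higher (5.32% of 13132 genes) and 0 lower (5.83%). In LZ 2 of 9 were called higher (13.4% of 13724 genes) and 0 lower (25.8%). The median log2 difference of the members tested was -0.17 in SPG, 0.01 in PreL and 0.79 in LZ, where that of all genes tested was 0.00, 0.04 and -0.13. The counts of lower members at an unadjusted p under 0.05 were 1 in SPG (*Crabp1*), 0 in PreL and 0 in LZ, and edgeR and DESeq2 called 0 lower in each stage. In such bulk samples, fewer cells of a type and less RNA per cell cannot be told apart.

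**Figure D2:**
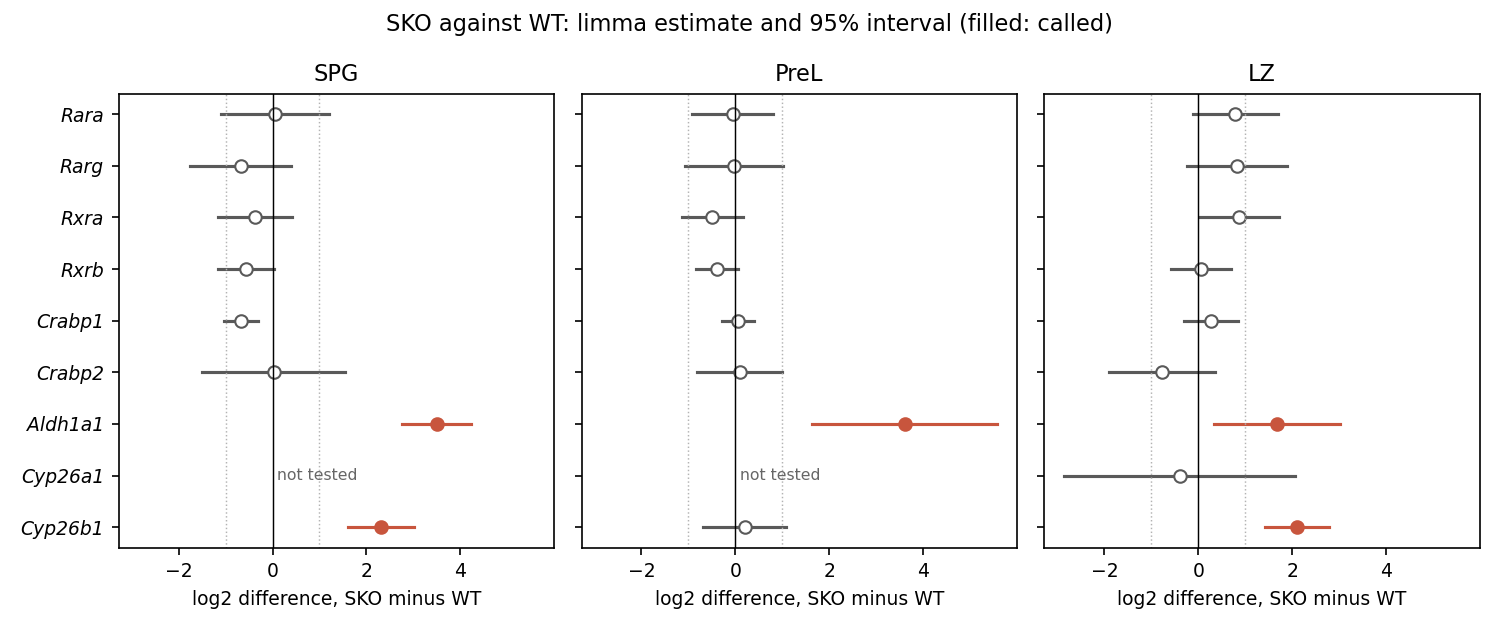
Log2 difference of SKO minus WT (x axes) of the 9 genes (y axis) in SPG, PreL and LZ, with 95% intervals from limma. Filled red points were called; dotted lines mark the fold threshold of 1 on the log2 scale, which *Aldh1a1* passed in the 3 stages and *Cyp26b1* in SPG and LZ.

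*Aldh1a1*, whose enzyme makes retinoic acid from retinal, had the widest range of normalised reads of the 9 genes and lies on chromosome 19 from 20492715 to 20643465. WT SPG replicates 1, 2 and 3 had 59.4, 115 and 142 normalised reads, and SKO SPG replicates 1, 3 and 4 had 1976, 1194 and 748.5. The lowest SKO library thus stood above the highest WT library of this stage, and the log2 difference was 3.49 (SE 0.34, limma adjusted p = 7.705e-05). WT PreL replicates 1, 2 and 4 had 30.1, 287.5 and 171 normalised reads, and SKO PreL replicates 1, 2 and 3 had 2221, 3567 and 399. The groups did not overlap there either, although the 3 SKO libraries were spread widely (2062 ± 1590, SD, n = 3). The log2 difference in PreL was 3.60 (SE 0.88, adjusted p = 0.0224 from limma). This call was lost without WT PreL replicate 1 (2.70), WT PreL replicate 4 (3.87), SKO PreL replicate 1 (3.31) or SKO PreL replicate 2 (2.96), with an adjusted p of up to 0.0731 from limma.

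In LZ the genotypes overlapped for *Aldh1a1*. WT LZ replicates 2 and 3 had 1451 and 362 normalised reads, and SKO LZ replicates 1, 2 and 3 had 1408, 2611 and 3516. WT LZ replicate 2 thus lay above the lowest SKO library. The log2 difference was 1.68 (SE 0.58, limma adjusted p = 0.0433), and the call was lost without WT LZ replicate 3 (0.68), SKO LZ replicate 2 (1.61) or SKO LZ replicate 3 (1.39), and rose to 2.63 without WT LZ replicate 2. Neither edgeR nor DESeq2 called it (log2 difference 1.5 with both), nor did limma on the calibrated values without rescaling (1.55).

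Between stages, *Aldh1a1* was not called. From PreL to LZ in WT its log2 difference was 2.46 (SE 0.86, limma adjusted p = 0.0513), and from SPG to PreL it was 0.20 in WT and 0.30 in SKO (adjusted p = 0.878 and 0.828). Its genotype difference changed between stages by 0.06 from SPG to PreL (adjusted p = 0.989 for the interaction in limma) and by -1.92 from PreL to LZ (adjusted p = 0.184).

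The level of *Aldh1a1* moved with markers of Leydig cells, the steroid-producing cells between the tubules. The 8 Leydig markers summed to 5.61 to 15.5 RPM in WT SPG against 62.8 to 229 RPM in SKO SPG. In PreL the sums were 6.72 to 18.3 RPM for WT against 40.9 to 466 RPM for SKO, and in LZ 23.9 to 73.7 RPM against 80.9 to 233 RPM. The genotypes thus did not overlap in any stage. Of these markers, 2 to 5 had 0 reads in a WT SPG library, and each had at least 1 read in every SKO library. Across the 17 libraries *Aldh1a1* ranged 126-fold, from 3.08 to 390 RPM, while its ratio to the Leydig sum stayed between 0.426 and 2.21. In SKO PreL replicates 1, 2 and 3, which differed most among themselves, *Aldh1a1* had 229, 390 and 38.1 RPM and the Leydig markers 281, 466 and 40.9. The 10 Sertoli markers differed in these libraries as well (808, 1048 and 72.6 RPM) and were higher in SKO SPG (48.9 to 94.4 RPM) than in WT SPG (27.9 to 41.2 RPM), while the ratio of *Aldh1a1* to their sum ranged from 0.0393 to 2.43 over the 17 libraries. The part of Leydig or Sertoli RNA in the *Aldh1a1* results was not tested.

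The 2 genes most like *Aldh1a1* over the 17 libraries, among 10254 genes averaging 50 reads or more, were *Cyp17a1*, which encodes a steroid-synthesis enzyme of Leydig cells (Pearson r = 0.959, Spearman rho = 0.971), and its paralogue *Aldh1a7* (r = 0.957, rho = 0.958). In sequence, 3.06% of the 50-base words of *Aldh1a1* transcripts also occur in *Aldh1a7*, so reads from that stretch cannot be placed on 1 of the 2 genes. These correlations describe libraries that share stages and genotypes and carry no test. *Cyp17a1* itself was called in each stage, with log2 differences of 4.28 in SPG, 4.32 in PreL and 3.38 in LZ (limma adjusted p = 0.000957, 0.0312 and 0.000745).

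**Figure D3:**
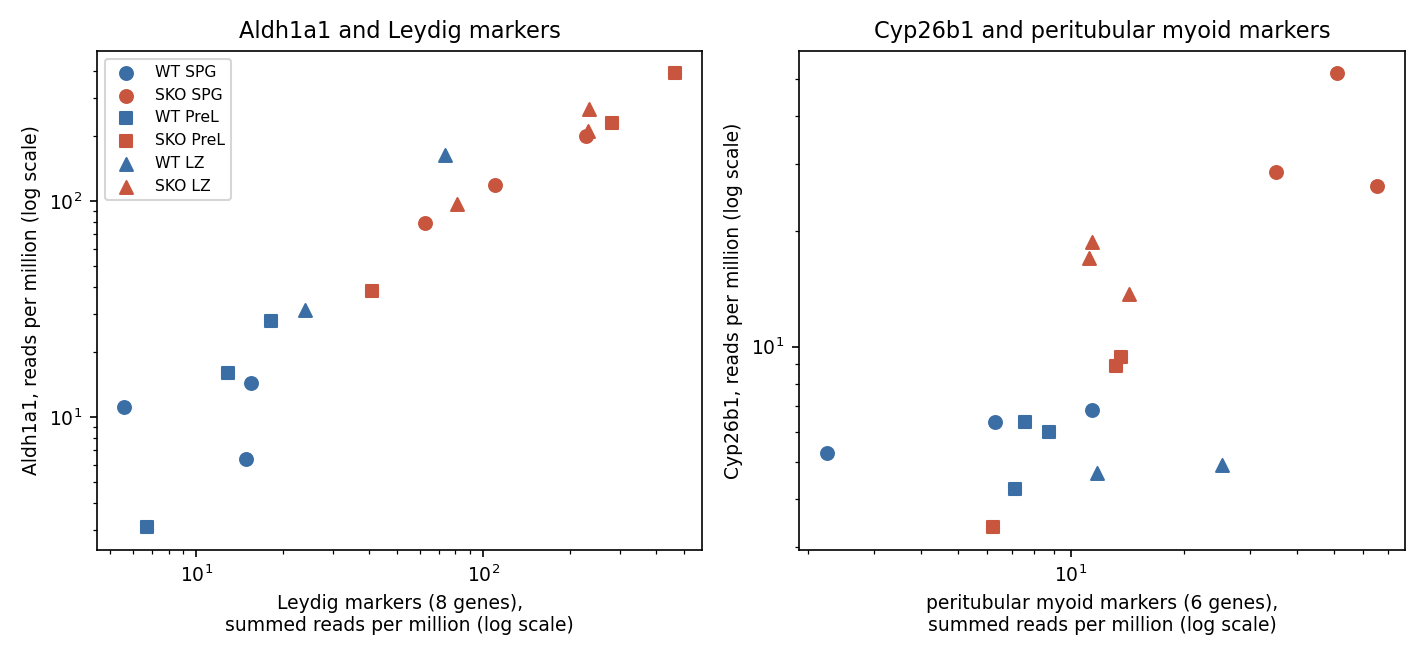
Left, *Aldh1a1* (y axis) against the summed 8 Leydig markers (x axis); right, *Cyp26b1* against the summed 6 peritubular myoid markers, both in RPM on log axes, with 1 point per library. *Aldh1a1* follows the Leydig sum over all groups, while the SKO LZ libraries (red triangles) stand above WT LZ for *Cyp26b1* at similar or lower myoid sums.

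*Cyp26b1*, which encodes a retinoic acid hydroxylase and lies on chromosome 6 from 84571414 to 84593908, was near 50 normalised reads in WT at each stage and higher in SKO at SPG and LZ only. WT SPG replicates 1, 2 and 3 had 59.4, 54.2 and 67.2 normalised reads, and SKO SPG replicates 1, 3 and 4 had 512, 263.5 and 272. No SKO library overlapped WT, and the log2 difference was 2.32 (SE 0.33, limma adjusted p = 0.000817). In PreL, WT replicates 1, 2 and 4 had 61.9, 44.0 and 64.0 normalised reads and SKO replicates 1, 2 and 3 had 86.2, 86.1 and 35.3. These groups overlapped, with a log2 difference of 0.20 (95% interval -0.69 to 1.08, adjusted p = 0.76 from limma). In LZ, WT replicates 2 and 3 had 43.8 and 54.2 normalised reads and SKO replicates 1, 2 and 3 had 199, 211 and 249. The 3 SKO libraries lay close together and above both WT libraries, with a log2 difference of 2.10 (SE 0.29, limma adjusted p = 0.000864).

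The calls of *Cyp26b1* in SPG and LZ held when any library was left out, with log2 differences from 2.02 to 2.49 in SPG and from 1.91 to 2.25 in LZ. Within SKO, *Cyp26b1* fell from SPG to PreL by 2.25 on the log2 scale (SE 0.38, adjusted p = 0.0123 in limma), which was no longer called without SKO SPG replicate 1 (-1.96, adjusted p = 0.0551 from limma). It then rose from PreL to LZ by 1.69 (SE 0.32, limma adjusted p = 0.0038). Within WT its log2 difference was -0.12 from SPG to PreL and -0.32 from PreL to LZ (adjusted p = 0.862 and 0.613 from limma). The genotype difference itself changed from PreL to LZ by 1.88 (SE 0.52, limma adjusted p = 0.00808), or by 1.11 on the calibrated values without rescaling (adjusted p = 0.112, not called), and from SPG to PreL by -2.19 (SE 0.49, limma adjusted p = 0.0555), which missed the threshold.

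Peritubular myoid cells, the contractile cells around the tubules, are a known source of *Cyp26b1*, and the sum of their markers was higher in SKO in SPG but not in LZ. The 6 myoid markers summed to 2.24 to 11.4 RPM in WT SPG and to 35.3 to 65.4 in SKO SPG, and from 1 to 3 of the 6 were at 0 reads in the WT libraries. The 6 markers did not act alike. *Acta2*, with 25.4 to 46.9 RPM most of the SKO sum, and *Myh11* were called higher (log2 difference 5.46 and 2.52, limma adjusted p = 1.713e-05 and 0.00876), *Tagln* was not called (0.99), *Actg2* was lower in SKO without being called (-1.90, adjusted p = 0.0713), and *Cnn1* and *Des* were too low for a test. The 8 macrophage markers summed to 9.41 to 15.5 RPM in WT SPG and to 117 to 193 RPM in SKO SPG. In LZ the myoid sum was 11.8 and 25.3 in WT and 11.2 to 14.3 in SKO, so the SKO libraries did not exceed both WT libraries, while *Cyp26b1* did. *Actg2* gave 9.48 and 4.54 RPM in WT LZ replicates 2 and 3 and 0.144 to 0.516 RPM in SKO LZ. The myoid sums, and the ratios to them, thus rest in part on different markers in the 2 genotypes. *Acta2* alone differed by 0.66 in LZ (adjusted p = 0.177 from limma). Other sums did separate the genotypes there, as the Leydig markers were higher in SKO LZ and the late spermatocyte markers lower, with the values given above. In PreL the myoid sum was 7.09 to 8.765 RPM in WT and 6.22 to 13.6 RPM in SKO, below the sums of SKO SPG. The ratio of *Cyp26b1* to the myoid sum was 0.598 to 2.35 in WT SPG, 0.401 to 1.01 in SKO SPG, 0.194 to 0.398 in WT LZ and 0.964 to 1.65 in SKO LZ. In PreL it was 0.6 to 0.839 in WT and 0.543 to 0.693 in SKO. The part of myoid, Leydig, Sertoli or macrophage RNA in the SPG difference, and that of Leydig or late spermatocyte RNA in the LZ difference, was not tested. The part of such RNA in the fall and rise of *Cyp26b1* within SKO was not tested either. The genes most like *Cyp26b1* over the 17 libraries were *Ppap2b*, a lipid phosphatase gene (Pearson r = 0.927, Spearman rho = 0.899), and *Adamts5*, a matrix protease gene (r = 0.921, rho = 0.89).

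*Cyp26a1*, the relative of *Cyp26b1* whose promoter held the DR5, was barely detected. It had at most 23 reads in 16 of the 17 libraries and 82 in WT LZ replicate 2, which was also the library highest in Sertoli markers. In normalised reads WT LZ replicates 2 and 3 had 52.8 and 1.69 and SKO LZ replicates 1, 2 and 3 had 14.9, 11.3 and 3.82. The groups overlapped, with a log2 difference of -0.39 (95% interval -2.85 to 2.07, limma adjusted p = 0.776). It passed the filter of a mean of 10 reads only in the 2 comparisons of groups that include WT LZ, through that 1 library, and a difference in SPG or PreL was not detectable at this depth. From PreL to LZ in WT its log2 difference was 1.61 (limma adjusted p = 0.221). Among the alternatives, *Cyp26a1* passed the thresholds there on the calibrated values without rescaling, where the median log2 difference of all genes was 1.86. It also passed with replicate 2, the library that let the gene through the filter, standing alone for WT LZ.

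Of the receptors, those for retinoic acid itself were expressed at similar low levels in SPG and PreL of both genotypes. *Rara*, on chromosome 11 from 98927818 to 98974942, had from 14.7 to 46.2 normalised reads in the 12 SPG and PreL libraries, 33.5 and 35.6 in WT LZ and 79.7, 51.8 and 57.4 in SKO LZ. The SKO LZ libraries were above both WT LZ libraries, but at 30 to 32 reads each the log2 difference of 0.79 did not pass the test (SE 0.39, limma adjusted p = 0.124). *Rarg*, the receptor known from spermatogonia, on chromosome 15 from 102234938 to 102257517, had 40.8, 27.6 and 46.7 normalised reads in WT SPG and 11.9, 35.6 and 20.0 in SKO SPG, an overlap with a log2 difference of -0.68 (95% interval -1.75 to 0.40, adjusted p = 0.433 from limma). In LZ it had 38.6 and 17.8 in WT and 39.9, 58.3 and 49.7 in SKO. The SKO libraries stood just above WT, with a log2 difference of 0.82 (SE 0.45, limma adjusted p = 0.168).

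Within SKO, 3 of the 8 members tested were called from PreL to LZ, 2 higher (*Rarg* and *Cyp26b1*, against 10.6% of the 12477 genes tested) and 1 lower (*Crabp2*, against 6.93%). *Rarg* rose from 15.5, 28.4 and 22.3 to 39.9, 58.3 and 49.7 normalised reads, a log2 difference of 1.05 (SE 0.34, limma adjusted p = 0.0412). *Rara* and *Rxra* had log2 differences of 0.94 and 0.78 in this step (adjusted p = 0.0547 and 0.0271 from limma), below the thresholds of p and fold respectively. The call of *Rarg* was lost without SKO PreL replicate 1 (0.84) or SKO LZ replicates 1 (1.18), 2 (0.92) or 3 (1.02). It was also lost with TMM, DESeq2, pseudocount 50, no filter, 1 fit of all libraries and the replicate block. *Rara* was called without SKO PreL replicate 3 (1.16). In WT, 0 of 9 were called from PreL to LZ, against 18.8% of 13759 genes higher and 7.8% lower. At an unadjusted p under 0.05 it was 1 (*Aldh1a1*), and edgeR and DESeq2 called 0. For *Rarg* and *Rara* the WT log2 differences were 0.10 and -0.02, and the change between genotypes did not pass the interaction test (0.82 and 0.83, limma adjusted p = 0.379 and 0.35).

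*Rxra*, one of the shared partners of RARs, lies on chromosome 2 from 27676440 to 27762957. It was the only receptor whose step from PreL to LZ passed the interaction test, a call lost under several alternatives. WT PreL replicates 1, 2 and 4 had 116, 81.2 and 107 normalised reads and WT LZ replicates 2 and 3 had 90.7 and 48.3. SKO PreL replicates 1, 2 and 3 had 63.8, 88.6 and 59.5 and SKO LZ replicates 1, 2 and 3 had 137, 120 and 119. The WT groups overlapped between these stages and the SKO groups did not. The late spermatocyte and spermatid sums given above differed between WT LZ and SKO LZ, and their part in the receptor differences was not tested. The genotype difference changed from PreL to LZ by 1.37 (SE 0.47, limma adjusted p = 0.0285), and with *Cyp26b1* it made 2 of the 8 members tested past an adjusted p of 0.05, the only threshold used for interactions, against 38.2% of the 13530 genes tested. On the calibrated values without rescaling the interaction was 0.56 (adjusted p = 0.397 from limma), and without WT LZ replicate 3 it was 0.92 (adjusted p = 0.184 from limma). It was also lost without WT PreL replicates 1 (1.27) or 4 (1.32), SKO PreL replicates 1 (1.31) or 3 (1.26) or SKO LZ replicate 1 (1.30). Within LZ the log2 difference of *Rxra* was 0.88 (SE 0.36, limma adjusted p = 0.0758), and with replicate 3 standing alone for WT LZ, where the spread came from SKO LZ only, it was 1.27 and called, as was *Rarg*, which made 4 members called.

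*Rxrb*, on chromosome 17 from 34031812 to 34038399, was the most abundant of the 4 receptors per kilobase. Its WT SPG libraries had 278, 193 and 283 normalised reads and its SKO SPG libraries 187, 193 and 127, and the other 11 libraries lay between 160 and 259. The lowest WT and the highest SKO library of SPG were level. Its log2 difference between genotypes was -0.57 in SPG, -0.39 in PreL and 0.05 in LZ (limma adjusted p = 0.211, 0.21 and 0.881). The genes most like *Rxra* were *Gsr* (r = 0.869) and *Nipa1* (r = 0.861), and those most like *Rxrb* were *Rspo4* (r = 0.849) and *Large* (r = 0.836), over 17 libraries.

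The binding protein genes *Crabp1* and *Crabp2* were not called between the genotypes, and *Crabp2* was called between stages in SKO. *Crabp1*, on chromosome 9 from 54764748 to 54773110, had 903, 755 and 885 normalised reads in WT SPG and 478, 607 and 527 in SKO SPG. No SKO library reached WT, and the log2 difference of -0.67 (SE 0.17, limma adjusted p = 0.0198) passed the p threshold but not that of fold. In PreL the 6 libraries of both genotypes lay between 563 and 756 normalised reads and overlapped, with a log2 difference of 0.05 (95% interval -0.29 to 0.39). In LZ the WT libraries had 941 and 511 and the SKO libraries 867, 850 and 814.5, a log2 difference of 0.27 (adjusted p = 0.401 from limma). From SPG to PreL *Crabp1* was -0.41 in WT and 0.35 in SKO on the log2 scale, neither called, and the interaction of 0.70 had an unadjusted p of 0.0137 and an adjusted p of 0.216 in limma. Its most alike genes were *Lmo1* (r = 0.911) and *Pus7* (r = 0.887).

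*Crabp2*, on chromosome 3 from 87948666 to 87953376, was low and scattered, with 0 of 12032258 reads in WT SPG replicate 3, which allows up to 3 reads, and 73 in WT SPG replicate 1. In SKO it fell from 35.3, 29.2 and 53.9 normalised reads in PreL to 12.5, 11.3 and 22.9 in LZ, with no overlap and a log2 difference of -1.23 (SE 0.41, limma adjusted p = 0.0444). The SKO LZ values rest on 5, 7 and 12 reads, DESeq2 did not call the difference, and the call was lost without SKO PreL replicates 1 (-1.31) or 3 (-0.99) or SKO LZ replicates 1 (-1.12) or 2 (-1.06). Between genotypes its log2 difference was 0.03, 0.09 and -0.76 in the 3 stages (adjusted p = 0.988, 0.894 and 0.222 from limma).

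From SPG to PreL *Cyp26b1* in SKO was the member called. *Crabp2* had log2 differences of 0.81 in WT and 0.90 in SKO and *Rarg* of -0.63 in WT (limma adjusted p = 0.514, 0.299 and 0.422), and *Crabp1* did not overlap between the stages in either genotype. In WT 0 of 8 were called, against 2.54% of the 12657 genes tested higher and 1.21% lower. At an unadjusted p under 0.05 it was 1 (*Crabp1*), and edgeR and DESeq2 called 0. In SKO 1 of 8 was called, *Cyp26b1*, lower (0.955% of 12882 genes), and 0 higher (1.63%). At an unadjusted p under 0.05, 1 was higher (*Crabp1*), and edgeR and DESeq2 called 0 higher. The interaction of genotype and this step was called for 0 of 8 by limma, against 0.362% of 13530 genes. At an unadjusted p under 0.05 there were 2 (*Crabp1* and *Cyp26b1*), edgeR called 0, and DESeq2 called 1, *Cyp26b1*.

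The wider retinoid pathway was read from a list of 54 other genes in the table. In SPG 4 of the 36 tested were called higher in SKO (3.95% of all genes tested) and 0 lower (2.06%). In PreL 6 were higher (5.32%) and 0 lower (5.83%), and in LZ 9 higher (13.4%) and 5 lower (25.8%). The median log2 difference of those tested was 0.30, 0.31 and 0.22. Without SKO SPG replicate 1 the SPG count was 1, and it was 2 without SKO SPG replicate 3 or WT SPG replicate 3. The PreL count was 1, 2 and 3 without SKO PreL replicate 1, SKO PreL replicate 2 and WT PreL replicate 4, and the LZ count was 6 without WT LZ replicate 3. The SPG count was also 1 with no filter and 8 with no fold threshold, and the PreL count 16 with the calibrated values without rescaling.

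Among the genes of synthesis from retinol, 1 of 7 tested was called in SPG and in PreL, *Adh1*, and of those of storage and retinal reduction 1 of 7, *Dhrs3*. Both were higher in SKO, where 3.95% of all genes tested were called higher in SPG and 5.32% in PreL. *Adh1*, an alcohol dehydrogenase that oxidises retinol, had at most 18.6 normalised reads in WT SPG and from 51.1 to 156 in SKO SPG, and was called in the 3 stages with log2 differences of 2.58, 3.92 and 3.83 (limma adjusted p = 0.0126, 0.00635 and 0.00155). The SPG call was lost without SKO SPG replicate 1 (2.20), with edgeR (3.18, adjusted p = 0.0703) and in limma with no filter (2.58, adjusted p = 0.0809). The exons of *Adh1* overlap an annotated gene on the opposite strand. *Dhrs3*, which reduces retinal back to retinol, differed by 2.74 in SPG and 3.06 in PreL (adjusted p = 0.0336 and 0.00857), the SPG call being lost without any 1 library other than SKO SPG replicate 4 (lowest 2.05, without SKO SPG replicate 1) and the PreL call without SKO PreL replicate 1 (2.74). The SPG call of *Dhrs3* was also lost with pseudocount 1 and with no filter. *Rarres2*, the chemerin gene, differed in SPG by 3.07 (limma adjusted p = 0.00296). *Rdh10*, the main retinol dehydrogenase of the embryo, differed by 0.88, 0.65 and 0.83 in SPG, PreL and LZ without reaching the fold threshold, and was called in SPG without WT SPG replicate 1 (1.12). *Rbp4*, the serum retinol carrier, differed by 0.63 in SPG (adjusted p = 0.00665 from limma), also below it. The Leydig, Sertoli and macrophage sums given above differed between the same libraries, and their part was not tested.

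In LZ, 4 of the 7 tested genes of storage and retinal reduction were called lower in SKO (*Lrat*, *Dgat1*, *Rdh11* and *Rdh14*) and 0 higher, with a median log2 difference of -1.41. Of 8 tested genes of synthesis from retinol, 3 were called higher (*Adh1*, *Rdh1* and *Rdh16*) and 1 lower (*Aldh1a2*), with a median of 0.61. Of all 13724 genes tested in LZ, 25.8% were called lower and 13.4% higher. *Dgat1*, *Rdh14* and *Rdh1* are named here after their values were seen. *Rdh11*, a retinal reductase, differed by -4.34 (SE 0.46, limma adjusted p = 0.000223), *Lrat*, which makes retinyl esters, by -3.67 (adjusted p = 0.00571), and *Aldh1a2*, the retinaldehyde dehydrogenase of spermatocytes, by -1.08 (adjusted p = 0.0102). *Lrat* was no longer called without WT LZ replicate 2 (-3.87) or 3 (-3.51), and *Aldh1a2* without WT LZ replicate 3 (-0.73) or SKO LZ replicate 2 (-0.96). Late spermatocyte markers stood at 3435 and 6149 RPM in WT LZ and at 118 to 136 in SKO LZ, and their part in these differences was not tested. Higher in SKO LZ were *Rdh16*, a retinol dehydrogenase (3.48, adjusted p = 0.000141), *Ep300*, a histone acetyltransferase and coactivator (2.05, adjusted p = 9.732e-05), and *Fabp5*, a fatty acid-binding protein that also carries retinoic acid (1.19, adjusted p = 0.0196), all from limma. The exons of *Rdh16*, *Rdh1* and *Ep300* each overlap another annotated gene on the same strand. *Fabp5* was no longer called without WT LZ replicate 3 (0.71), SKO LZ replicate 1 (1.11) or SKO LZ replicate 3 (1.19). The coactivator *Kat2b* and the cyclin gene *Ccnd2* were called higher in PreL (1.43 and 1.76, adjusted p = 0.0461 and 0.0337), and neither call held without SKO PreL replicate 1 (1.30 and 1.69) or replicate 2 (1.13 and 1.30), or without WT PreL replicate 2 or 4, nor that of *Kat2b* without WT PreL replicate 1 (1.27). In LZ both were called higher in SKO as well, and neither call held without SKO LZ replicate 1 (1.16 for each) or 2 (1.26 and 1.06). The LZ call of *Ccnd2* was also lost without SKO LZ replicate 3 (1.11). Without WT LZ replicate 3 the LZ differences of *Kat2b* and *Ccnd2* were 0.84 and 0.49. In SKO PreL replicates 1, 2 and 3, *Kat2b* had 19.3, 26.0 and 8.08 RPM and *Ccnd2* 21.5, 38.6 and 8.35 RPM, in the order of the Sertoli and Leydig sums of these libraries, whose part was not tested. The RNAs of *Rarb* and *Stra6* were too low for a test between the genotypes.

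**Figure D4:**
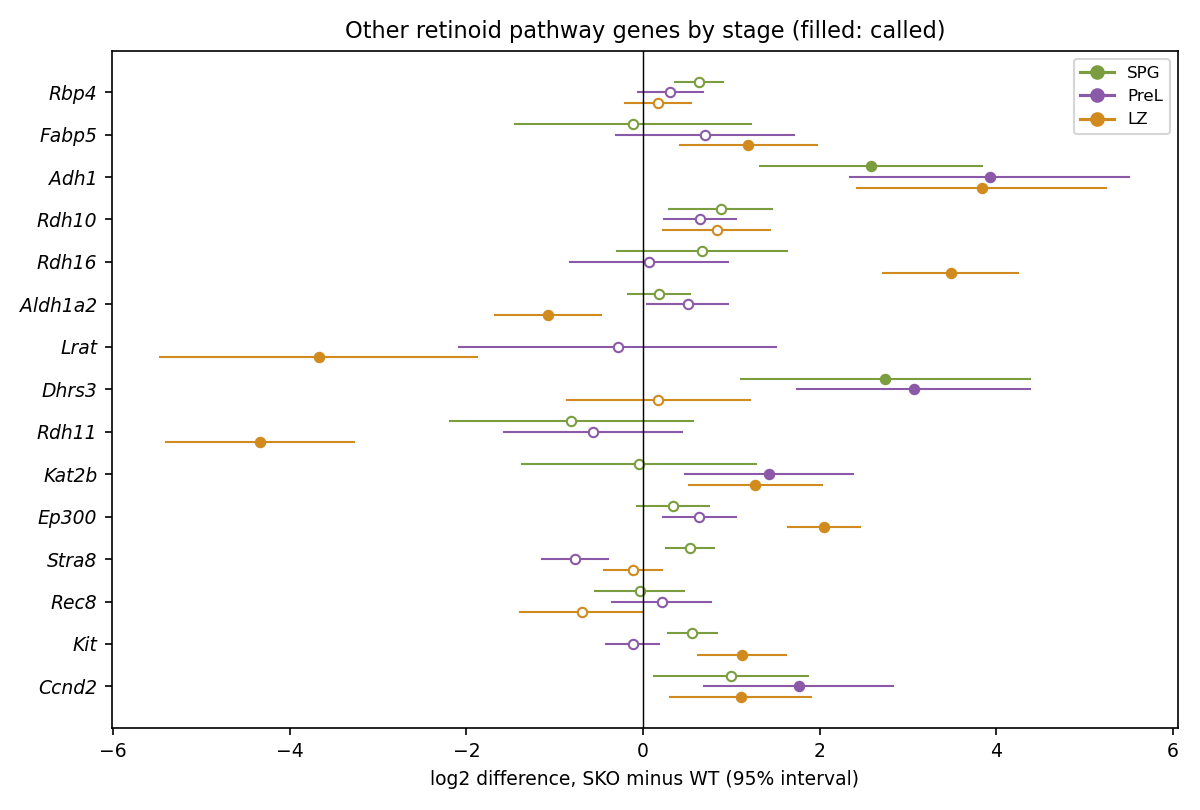
Log2 difference of SKO minus WT (x axis) of 15 other retinoid pathway genes (y axis) in SPG, PreL and LZ (colours), with 95% intervals from limma; filled points were called and genes that failed the filter have no point. *Adh1* lies above 0 in the 3 stages, and *Rdh11*, *Lrat* and *Aldh1a2* lie below 0 in LZ.

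Of the genes that retinoic acid induces in germ cells, *Stra8* was highest in PreL in WT and not in SKO, in normalised reads. It had 3617, 2800 and 3163 normalised reads in WT SPG and 6599, 6183 and 7413 in WT PreL, against 5036, 4221 and 4700 in SKO SPG and 3637, 3262 and 4990 in SKO PreL. These WT stages did not overlap and these SKO stages did. WT LZ had 1898 and 1998 normalised reads and SKO LZ 1786, 1830 and 1837. The fall of *Stra8* from PreL to LZ in WT was called. On the calibrated values without rescaling it was -0.09 (limma adjusted p = 0.679), where the call was lost. From SPG to PreL its log2 difference was 1.04 in WT (SE 0.13, limma adjusted p = 0.00391) and -0.23 in SKO (adjusted p = 0.426), and the 2 steps differed by -1.33 (SE 0.20, adjusted p = 0.00917 for the interaction in limma), but by -0.31 on the calibrated values without rescaling (adjusted p = 0.261), where the call was lost. Without WT SPG replicate 2 (0.95) or WT PreL replicate 4 (0.97) the WT step fell below the fold threshold. Between genotypes *Stra8* was 0.53 in SPG and -0.78 in PreL (limma adjusted p = 0.0168 and 0.0138), both below the fold threshold, and -0.11 in LZ. The SKO mice carry the Cre at this locus, so a part of their *Stra8* reads may come from the altered allele, which was not tested. The early meiotic sums given above differed between the genotypes in SPG and PreL, and their part in the *Stra8* steps was not tested.

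*Rec8*, a meiotic cohesin subunit, had 378, 387 and 250 normalised reads in WT SPG and 377, 343 and 268 in SKO SPG, an overlap with a log2 difference of -0.04. It was called lower from SPG to PreL in WT (-1.36, limma adjusted p = 0.0122) and in SKO (-1.09, adjusted p = 0.0358). The SKO call was lost without SKO SPG replicates 1, 3 or 4 or SKO PreL replicates 1 or 2 (limma adjusted p up to 0.154). It was also lost with the replicate block, with no filter and with pseudocount 50. On the calibrated values without rescaling the SKO step was -0.08 (limma adjusted p = 0.829), not called. The step differed between genotypes by 0.23 (limma adjusted p = 0.805). *Kit*, the stem cell factor receptor of differentiating spermatogonia, was called higher in SKO LZ, with a log2 difference of 1.12 (SE 0.21, limma adjusted p = 0.00364). SKO LZ had 1744, 1731 and 1822 normalised reads against 1025 and 630 in WT LZ. *Kit* fell below the fold threshold without WT LZ replicate 3 (0.77) and on the calibrated values without rescaling (0.99). The Leydig and late spermatocyte sums given above differed between the same LZ libraries, and their part in the *Kit* difference was not tested. In SPG *Kit* differed by 0.56 and in PreL by -0.12.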

How the data were processed

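The authors made the libraries with Smart-seq2, which amplifies polyadenylated RNA, and counted uniquely mapped reads (mm10) per gene with HTSeq 0.11.2. The deposited signal values are these counts times 1 calibration factor per library (1 to 10.4), which the authors derived from ERCC spike-in RNA and the number of cells. TopHat2 2.1.1, Cufflinks 2.2.1 and DESeq2 are also named in the submitters' processing notes. Whole reads came back from 100% of the values (tolerance 0.1 read). Without molecular identifiers, amplified reads can be copies of 1 molecule, and the floor of 3 reads covers counting error only.

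For each comparison, size factors (median of ratios, over its libraries) scaled the values, genes averaging under 10 recovered reads were dropped, and log2(value + 10) was tested with limma 3.58.1 (R 4.3.3, mean-variance trend, Benjamini-Hochberg adjustment over all genes). This scale understates the fold changes of low genes. A call needed an adjusted p under 0.05 and an absolute log2 difference above 1. Interactions were fitted over 17 libraries with no fold threshold. The fits were also run on reads simulated with the same spread in every group, which does not cover groups of unequal spread. As alternatives, edgeR 4.0.16 and DESeq2 1.42.0 were run on the recovered reads, and limma with the calibrated values left unscaled, with TMM, with a pseudocount of 1 or 50, unfiltered, filtered at 50 reads, in a single fit of every library, with replicate numbers as a block, with the fold threshold removed (set to 1 for interactions), and with each library left out.

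The members and lists were chosen with earlier results of these data known. Genes were named by a rule: the 9 members, *Nat10*, 12 retinoid genes (*Gm4969* was not analysed here and 1 other is not reported here), per stage and role the called gene with the largest difference among those averaging 50 reads or more, single markers of the cell type lists, and the 2 genes most like each member that averaged 50 reads. Lists covered Sertoli, Leydig, peritubular myoid and endothelial cells, macrophages, spermatids, late spermatocytes, cells of early meiosis, and spermatogonia before and during differentiation. Positions and exon lengths are from GENCODE M21 (GRCm38). Of the 50-base words of member transcripts, 0.276% in *Rara*, 3.06% in *Aldh1a1* and 0% in the other 7 also occur in another gene, and member exons overlap no other annotated gene. Replicates of a group differed by more than sampling noise (chi-square 5.88 to 62.4 per degree of freedom).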

Additional observations from a re-analysis of the deposited data

Results flagged for a closer look

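The genotype difference changed between stages, by the interaction test of limma over the 17 libraries, for 2 members. From PreL to LZ it changed by 1.88 on the log2 scale for *Cyp26b1* and by 1.37 for *Rxra*, which lost the call without any 1 of 6 libraries (lowest 0.92, without WT LZ replicate 3). Of the responsive and synthesis genes named, it changed by -1.33 for *Stra8* from SPG to PreL, and from PreL to LZ by 1.26 for *Kit*, -1.55 for *Aldh1a2* and 0.68 for *Stra8*. On the calibrated values without rescaling only *Aldh1a2* of these passed, with -0.31 for *Stra8* from SPG to PreL and, from PreL to LZ, 1.11 for *Cyp26b1*, 0.56 for *Rxra*, 0.39 for *Kit* and the opposite sign for *Stra8* (-0.19). From PreL to LZ 38.2% of all genes passed this test, and from SPG to PreL 0.362%. With 2 or 3 libraries per group, no library was tested for standing apart from its group.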

How the results depend on the processing

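The 4 receptors, 2 binding proteins and 3 enzymes gave 74 differences, each recomputed under up to 27 alternatives. Of the 21 whose 95% interval excluded 0, 0 changed direction in 389 recomputations, with 328 on the same side of the thresholds, 43 no longer called and 18 newly called. Of the 53 whose interval included 0, 38 changed direction at least once, and these are given as values only. The count of members called in SPG was 3 with no fold threshold (with *Crabp1*) and 2 under every other alternative. In LZ it was 1 instead of 2 with the calibrated values, pseudocount 1, no filter, edgeR, DESeq2 and 1 fit of all libraries, and 1 to 4 with a library left out (4 without WT LZ replicate 2). In PreL it was 0 to 1 with a library left out. From SPG to PreL in SKO it was 4 with the calibrated values and 0 to 1 with a library left out. From PreL to LZ in WT it was 8 with the calibrated values, 1 with TMM, pseudocount 50 and 1 fit of all libraries, and 0 to 1 with a library left out. From PreL to LZ in SKO it was 5 with the calibrated values, 1 with pseudocount 50, no filter, a mean of at least 50 reads, DESeq2 and 1 fit of all libraries, and 1 to 3 with a library left out. The interaction from SPG to PreL had 2 with the calibrated values, 1 with pseudocount 50 and DESeq2, and 0 to 1 with a library left out (1 without either WT LZ library). That from PreL to LZ had 1 with the calibrated values, *Aldh1a1* in place of *Cyp26b1* and *Rxra*, and 1 to 3 with a library left out.

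Without rescaling, the calibrated values moved the median log2 difference of all genes to -0.25 in SPG, 0.73 in PreL, 1.01 from SPG to PreL in SKO, 1.86 from PreL to LZ in WT and 0.81 in SKO, 0.94 for the interaction from SPG to PreL and -1.12 for that from PreL to LZ. The share of lower calls among all calls was then 59.2% instead of 34.3% in SPG, 14.5% instead of 52.3% in PreL, 0.528% instead of 36.9% from SPG to PreL in SKO, 0.136% instead of 29.3% and 3.33% instead of 39.6% from PreL to LZ in WT and SKO, and 2.42% instead of 30.6% and 89.8% instead of 60.5% for the interactions. On that scale *Stra8* reversed in the interaction from PreL to LZ (-0.19), as did *Kit* from SPG to PreL in SKO (0.22), from PreL to LZ in WT (0.84) and in the interaction from SPG to PreL (0.32). For the interaction from SPG to PreL the share of lower calls was 16.1% with TMM, 18.8% with edgeR, 17.6% with pseudocount 1, 57.9% with pseudocount 50 and 56.9% with DESeq2, for that from PreL to LZ 48.3% with edgeR, and from SPG to PreL in SKO 23.5% in 1 fit. The count of all genes called moved most from SPG to PreL. The interaction had 49, against 6 to 87 with a library left out, 6085 with the calibrated values, 17 and 107 with pseudocounts 1 and 50, 28 at 50 reads, 16 with edgeR, 334 with DESeq2 and 12 with the replicate block. In SKO that step had 333, against 108 to 484, 5687 calibrated, 219 unfiltered, 650 with DESeq2, 541 in 1 fit, 116 with the block and 724 with no fold threshold. In WT it had 475, against 105 to 405, 144 unfiltered, 748 with DESeq2, 721 in 1 fit and 922 with no fold threshold. SPG had 773 (423 to 622, 503 unfiltered, 507 at 50 reads, 1206 in 1 fit, 1421 with no fold threshold), PreL 1464 (690 to 1768, 4044 calibrated, 766 at 50 reads, 2352 with no fold threshold), and the step from PreL to LZ 3658 in WT (1716 to 3397, 11007 calibrated) and 2184 in SKO (1708 to 2450, 4561 calibrated, 4606 with no fold threshold). The cause was not tested.

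Whether equal replicate numbers mark paired samples could not be decided, and the labels name no shared source. Deviations of same-numbered libraries from their group means correlated between -0.186 and 0.157. Such deviations cancel within a group of so few libraries, so these correlations cannot show or exclude pairing. With the replicate block the interaction from PreL to LZ had 1 member (*Cyp26b1*), the block changed the call of *Rarg* from PreL to LZ in SKO (1.05, not called), and it could not be fitted from PreL to LZ in WT, where 1 number is shared. Members with fewer than 40 reads in most libraries (*Rara*, *Rarg*, *Crabp2*, *Cyp26a1*) are limited by depth, above all in SKO LZ.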
